A study of Mus musculus with 8 samples.

Results

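The cell cycle and DNA replication genes described here are 40 mouse genes given by symbol, from the helicase that opens DNA for copying to the proteins that build the mitotic spindle. They were found in the count table by matching each symbol to its Ensembl identifier in the GENCODE M21 annotation of GRCm38. All 40 were present among the 51826 genes counted, and all 40 were among the 16484 genes with enough counts to be tested. A dividing cell first loads and fires the MCM helicase, makes deoxynucleotides and copies its DNA in S phase, and then turns on cyclin B, the mitotic kinases and the spindle proteins to separate the copies. Most lymphocytes of a resting spleen do not divide, and the dividing cells of this organ include germinal centre B cells, plasmablasts, erythroid precursors and myeloid precursors. The level of these genes in bulk RNA is therefore widely read as a measure of how much division is under way.

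RNA sequencing was performed on total splenocytes of 8 BALB/c mice aged 3 months, 4 that received all-trans retinoic acid (tRA), an active form of vitamin A, and 4 controls that received vehicle. The tRA mice were dosed by mouth at 1 mg/kg body weight every day from weaning, and pristane, the agent that induces lupus elsewhere in the study, was not injected into either group. The sample labels repeat the tRA treatment for all 8 mice, so the grouping rests on the sample titles, which name 4 controls and 4 treated samples. The splenocyte preparation of the study included lysis of red blood cells. Total counts ranged from 30919272 to 37539631 per mouse, and the 40 genes had between 56 and 5477 counts in any one mouse. The 6 B cell markers summed to between 5299 and 6452 CPM (counts after scaling to equal library size), and the 6 T cell markers to between 1185 and 1464 CPM, so the defining lymphocyte genes of a spleen were present in each of the 8 libraries.

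Between tRA and control mice, 0 of the 40 genes had a false discovery rate (FDR) under 0.1 by edgeR's quasi-likelihood test (adjusted by Benjamini-Hochberg), and 0% of all genes tested did. At an unadjusted p under 0.05, 2 of the 40 were lower with tRA, Dut and Mcm3, and 0 were higher, against 3.55% of all genes tested that were lower and 2.94% that were higher. DESeq2 and limma-voom also gave 0 of the 40 at an FDR under 0.1 and 2 lower at an unadjusted p under 0.05, where DESeq2 called 0.198% and 3.96% of the genes it adjusted, and limma-voom 0.00607% and 3.89%. The 4 tRA mice all lay below the 4 controls for 1 of the 40 genes, Mcm3, and all above them for 0, while 1.63% and 1.91% of all genes tested were separated in this way. Of the 40 log2 fold changes (tRA over control), 28 were negative, where 49.7% of all genes tested were, and 26 were negative with RLE normalization and 23 with library size alone. Their median was -0.07, where the median of all genes tested was 0.0014. In bulk samples, fewer cells of a type and less RNA per cell cannot be told apart.

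Within the module, 2 tRA mice marked opposite ends. tRA mouse 3 had the highest level of the 8 mice for 28 of the 40 genes, whereas it was highest for 16.0% of all genes tested. At the other end, tRA mouse 1 had the lowest level for 22 of the 40, and it was lowest for 13.6% of all genes tested. Relative to the control mean of each gene, the mean log2 CPM of the 40 genes was -0.12, 0.15, -0.08 and 0.05 in control mice 1 to 4 and -0.35, -0.17, 0.32 and -0.21 in tRA mice 1 to 4. The tRA group thus held both the highest and the lowest of the 8 values, and the difference of the group means, -0.10, was smaller than the pooled SD between mice of 0.225. tRA mice 1, 2 and 4 were below the control mean for 36, 31 and 35 of the 40 genes, and tRA mouse 3 was below it for 4, while control mice 1 to 4 were below it for 30, 5, 28 and 16, and each mouse was below it for 48.2% to 54.7% of all genes tested. The SD was larger in the tRA than in the control group for 34 of the 40 genes, compared to 46.9% of all genes tested. Without tRA mouse 3, the tRA group had the larger SD for 10 of the 40, compared to 42.7% of all genes tested.

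**Figure D1:**
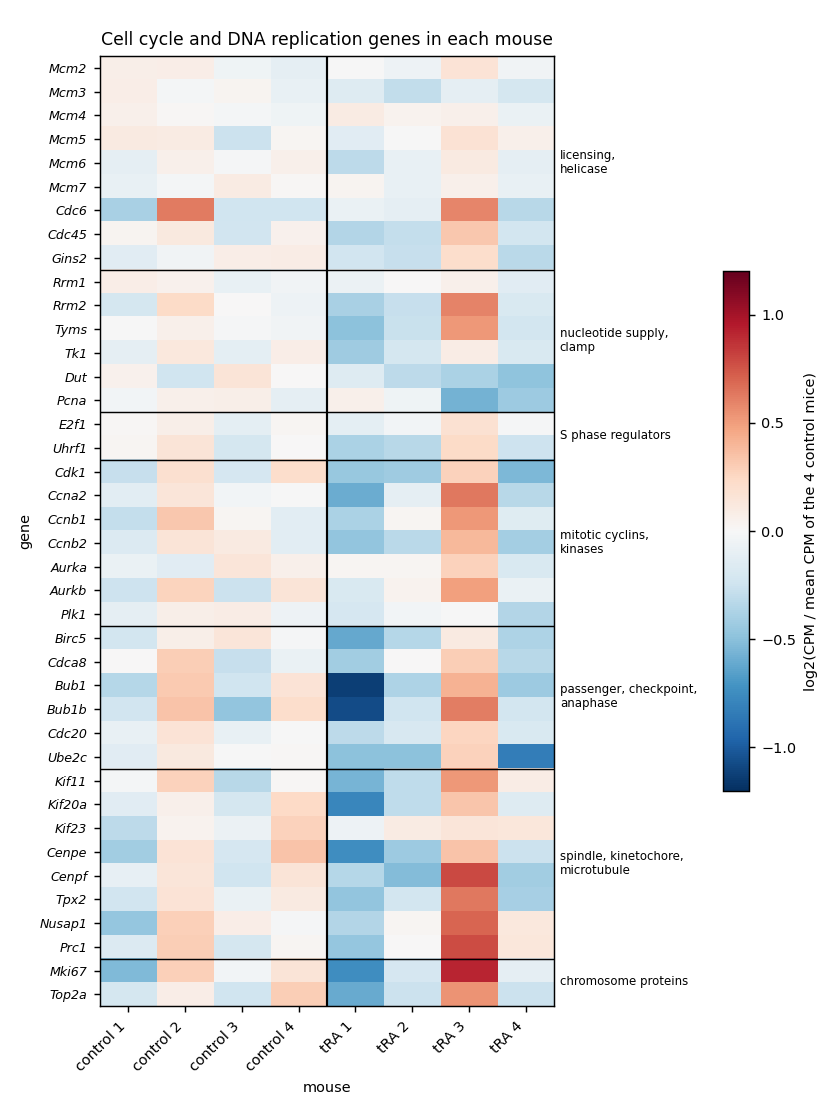
Level of each of the 40 genes (rows, by role) in each mouse (columns), as the log2 ratio of its CPM to the mean CPM of the 4 control mice. tRA mouse 3 is the highest of the 8 mice for 28 genes and tRA mouse 1 the lowest for 22, while Pcna and Dut are low in tRA mice 3 and 4.

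Each mouse was left out in turn, and tRA mouse 3 was then singled out after its values were seen. Without it, 38 of the 40 log2 fold changes were negative and their median was -0.25, while the median of all genes was -0.0048 and 51.4% of all genes were negative. At an unadjusted p under 0.05, 16 of the 40 genes were then lower with tRA and 0 were higher, against 2.70% and 2.50% of all genes. The 3 other tRA mice all lay below the 4 controls for 13 of the 40 genes and all above them for 0, against 2.87% and 3.50% of all genes tested. tRA mouse 3 was the highest mouse for 28 of the 40 genes, against 16.0% of all genes tested. Leaving it out therefore lowers the tRA mean of most of the 40, and the direction of these counts followed partly from that choice. The 40 genes are also not independent of each other, so the shares of all genes do not say how often such counts arise without tRA. By edgeR's quasi-likelihood test (adjusted by Benjamini-Hochberg), 0 of the 40 genes and 0% of all genes had an FDR under 0.1 without this mouse, and the lowest FDR among the 40 was 0.938. DESeq2 without the same mouse, a setting added after seeing the data, gave 17 of the 40 lower at an unadjusted p under 0.05, against 2.83% of the genes with an adjusted p, and 1 at an FDR under 0.1, Ube2c, against 0.137%. The count of 2 lower genes became 1 without control mouse 1 or without tRA mouse 2, and became 3 without tRA mouse 1, where 7.68% of all genes were lower, 19 of the 40 log2 fold changes were negative and their median was 0.01. Without control mouse 2, 21 were negative, as without tRA mouse 2. Single log2 fold changes changed sign without 1 or more of the mice, among the genes described by mouse here Mcm2, E2f1, Ccna2, Aurkb, Kif23, Tpx2, Mki67, Top2a and Prc1.

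**Figure D2:**
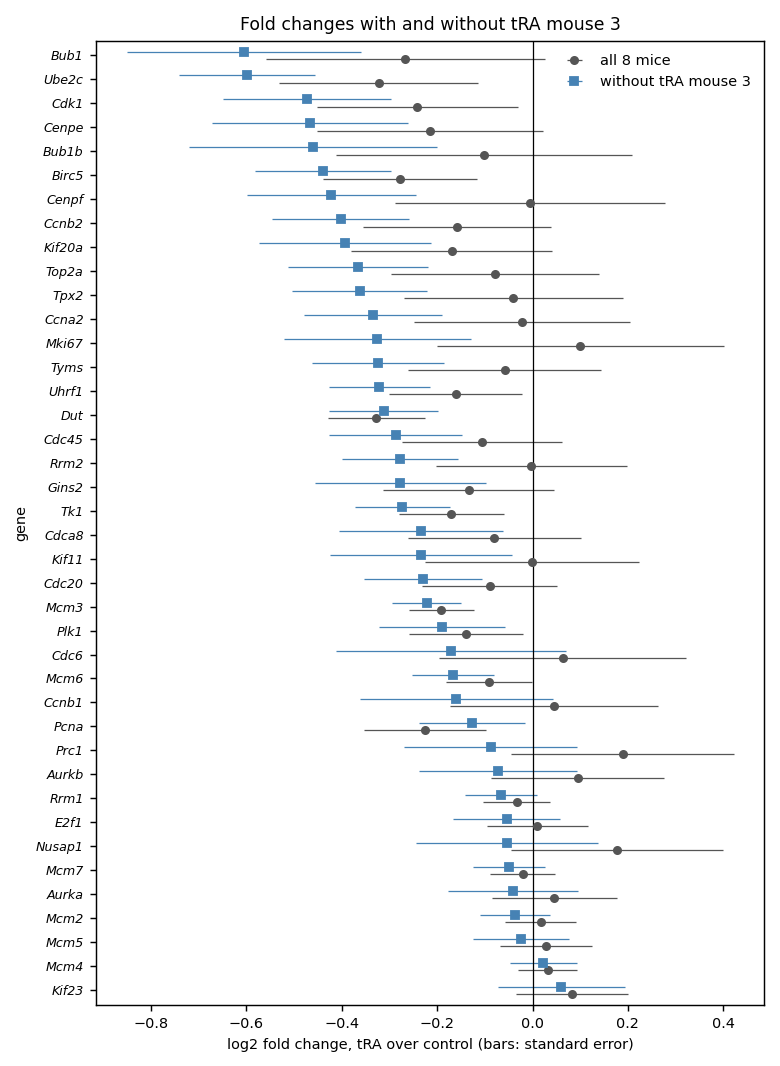
Log2 fold change of each of the 40 genes with all 8 mice (circles) and without tRA mouse 3 (squares), with standard errors from edgeR as bars. 28 of 40 values are below 0 with all mice and 38 of 40 without tRA mouse 3.

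Among the 9 genes of replication licensing and the helicase, 5 of the 6 helicase subunits had overlapping groups. Mcm2 to Mcm7 encode the ring-shaped helicase, Cdc6 loads it at origins, and Cdc45 and Gins2 activate it. Mcm4, at 21.6 CPM per kb of exon the highest of the 9 per length, was at 79.8, 77.1, 75.5 and 74.0 CPM in control mice 1 to 4 and 81.9, 78.9, 79.7 and 72.7 CPM in tRA mice 1 to 4. These groups overlapped over nearly their whole range, and the log2 fold change was 0.03 with a standard error (SE) of 0.06. An exact permutation test of the difference in mean log2 CPM gave p = 0.514 (two-sided, 70 assignments of mice). Mcm2 was at 70.5, 70.9, 64.8 and 62.2 CPM in the controls and 67.0, 64.4, 75.1 and 65.1 CPM with tRA. Here tRA mouse 3 was the highest of the 8 and the remaining tRA mice fell inside the control range, with a log2 fold change of 0.02 (SE 0.07) that was -0.04 without this mouse.

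Mcm3 was the helicase subunit whose groups did not overlap. It is ENSMUSG00000041859 and lies on GRCm38 at chr1:20802968-20820312, and its level was 67.9, 63.4, 65.6 and 60.4 CPM in control mice 1 to 4 and 57.6, 52.5, 59.8 and 55.4 CPM in tRA mice 1 to 4. Every tRA mouse was below every control mouse, although tRA mouse 3 and control mouse 4 were within 1 CPM of each other. The mean was 64.3 ± 3.21 CPM in controls and 56.3 ± 3.13 CPM with tRA (SD, n = 4 each), a log2 fold change of -0.19 (SE 0.07). The FDR over all genes was 0.757 by edgeR's quasi-likelihood test (adjusted by Benjamini-Hochberg). Its partners in the same hexamer had log2 fold changes of 0.03 for Mcm5, -0.09 for Mcm6 and -0.02 for Mcm7, with overlapping groups for each. The less abundant loading and activation factors followed tRA mouse 3 more closely. Cdc45 was at 8.13 CPM in tRA mouse 3 and between 5.10 and 7.07 CPM in the other 7 mice, and Gins2 was at 2.79 CPM against 1.92 to 2.55 CPM. Cdc6 had its highest value, 9.12 CPM, in control mouse 2, next to 8.89 CPM in tRA mouse 3, and the remaining 6 mice were between 4.52 and 5.59 CPM.

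Nucleotide supply and the replication clamp included Dut and Pcna, which were low rather than high in tRA mouse 3. All 6 log2 fold changes in this role were negative, from -0.33 for Dut to -0.0027 for Rrm2. Dut, the dUTPase that keeps uracil out of new DNA, is ENSMUSG00000027203 at chr2:125247190-125258608 and was at 29.8, 24.4, 32.0 and 28.8 CPM in control mice 1 to 4 and 25.8, 23.1, 22.1 and 20.6 CPM in tRA mice 1 to 4. Only control mouse 2 and tRA mouse 1 crossed between the groups. With a mean of 28.7 ± 3.18 CPM in controls and 22.9 ± 2.21 CPM with tRA (SD, n = 4 each), Dut had the lowest log2 fold change of the 40 genes, -0.33 (SE 0.10), with an exact permutation p of 0.0571 and an FDR of 0.757 by edgeR's quasi-likelihood test (adjusted by Benjamini-Hochberg). Unlike most of the module, its value hardly moved without tRA mouse 3, at -0.31 (SE 0.11).

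Pcna, the sliding clamp that holds polymerases on DNA, was the most abundant of the 40 genes per length, at 58.3 CPM per kb of exon. It was at 147.4, 157.7, 158.3 and 140.4 CPM in the controls and 157.7, 145.7, 101.7 and 111.4 CPM with tRA. tRA mice 3 and 4 were below all other mice, and tRA mice 1 and 2 were within the control range, so the groups overlapped (log2 fold change -0.23, SE 0.13, exact permutation p = 0.20). Thus the mouse with the highest Mki67 of the 8 had the lowest Pcna. The licensing factor Cdt1, outside the 40 genes, was also lowest in these 2 mice, with 57.9 and 60.1 CPM in tRA mice 3 and 4 and 77.0 to 101.4 CPM in the other mice. The 11 immediate early and heat shock genes, of which Fos was the most abundant, were also lowest in these mice, with a summed level of 17599, 16463, 17286 and 14548 CPM in control mice 1 to 4 and 15882, 12921, 5814 and 8206 CPM in tRA mice 1 to 4. Of the 11, 5 were lower with tRA at an unadjusted p under 0.05, against 3.55% of all genes tested, and 0 had an FDR under 0.1 by edgeR's quasi-likelihood test (adjusted by Benjamini-Hochberg). None was at 0, and their part in the level of Pcna was not tested.

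Ribonucleotide reductase makes the deoxynucleotides, and its subunits differed in pattern. Rrm1, the large subunit, was at 60.8, 59.8, 54.1 and 56.0 CPM in the controls and 54.9, 57.9, 60.2 and 52.6 CPM with tRA, with groups that overlapped over nearly their whole range. Rrm2, the subunit made in S phase, was at 25.6 CPM in tRA mouse 3 and between 12.9 and 19.8 CPM in the other 7 mice. Tyms, which makes thymidylate, showed the same picture, with 8.22 CPM in tRA mouse 3, 5.56 to 5.98 CPM in the controls and 4.06 to 4.92 CPM in the remaining tRA mice. Thus the controls of Tyms spanned a narrow range that tRA mice left on both sides. Tk1, the thymidine kinase of the salvage route, was lowest in tRA mouse 1 at 28.6 CPM and highest in control mouse 2 at 42.2 CPM.

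E2f1 and Uhrf1 regulate S phase transcription and the copying of DNA methylation. E2f1 varied little, with 9.26, 9.65, 8.49 and 9.37 CPM in the controls and 8.49, 8.97, 10.4 and 9.11 CPM with tRA. Uhrf1 was at 21.6, 23.7, 18.4 and 21.2 CPM in the controls and 16.3, 16.8, 24.9 and 17.8 CPM with tRA. Hence 3 tRA mice were below every control and the fourth was above every control, and the log2 fold change of Uhrf1 was -0.16 (SE 0.14) with all mice and -0.32 (SE 0.11) without tRA mouse 3.

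The 23 genes of the mitotic roles spread further between mice than the 17 of the replication roles. tRA mouse 3 was the highest of the 8 for 19 of the 23 mitotic and for 9 of the 17 replication genes, and tRA mouse 1 was the lowest for 15 and 7. Of all genes tested, 16.0% were highest in tRA mouse 3 and 13.6% lowest in tRA mouse 1. The mean log2 CPM of the mitotic genes relative to the controls was -0.48, -0.18, 0.46 and -0.22 in tRA mice 1 to 4 and between -0.20 and 0.19 in the controls. For the replication genes it was between -0.18 and 0.14 in the 4 tRA mice and between -0.05 and 0.09 in the controls. The ratio of tRA mouse 3 to the mean of the other tRA mice had a median of 1.69 over the mitotic genes and 1.18 over the replication genes, and 0.997 over all genes tested. The mitotic genes were also less abundant, with a control mean of 246 CPM summed over the 23, against 723 CPM over the 17 replication genes. Whether the mitotic and replication roles differ in their spread was not tested, and role and abundance were not separated.

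Mki67, whose product coats mitotic chromosomes and is the usual marker of cycling cells, gave the largest such ratio of the 40 genes, 2.36. It is ENSMUSG00000031004 and lies at chr7:135689784-135716361. Its level was 41.3, 72.6, 58.2 and 66.4 CPM in control mice 1 to 4 and 35.6, 51.7, 112.5 and 55.5 CPM in tRA mice 1 to 4. tRA mouse 3 stood far above the other 7 mice, and tRA mouse 1 was the lowest. The means, 59.6 ± 13.6 CPM in controls and 63.8 ± 33.6 CPM with tRA (SD, n = 4 each), did not differ beyond this spread. The log2 fold change was 0.10 (SE 0.30), and the difference in mean log2 CPM had an exact permutation p = 1 (two-sided). The sign turned without tRA mouse 3, to -0.33 (SE 0.20), and without control mouse 1, to -0.04. Top2a, the topoisomerase that untangles sister chromosomes, was at 23.9, 29.3, 23.5 and 33.9 CPM in the controls and 18.2, 23.1, 40.2 and 23.1 CPM with tRA. The same 2 tRA mice marked the ends of its range, and the log2 fold change was -0.08 (SE 0.22) with all mice and -0.37 (SE 0.15) without tRA mouse 3.

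**Figure D3:**
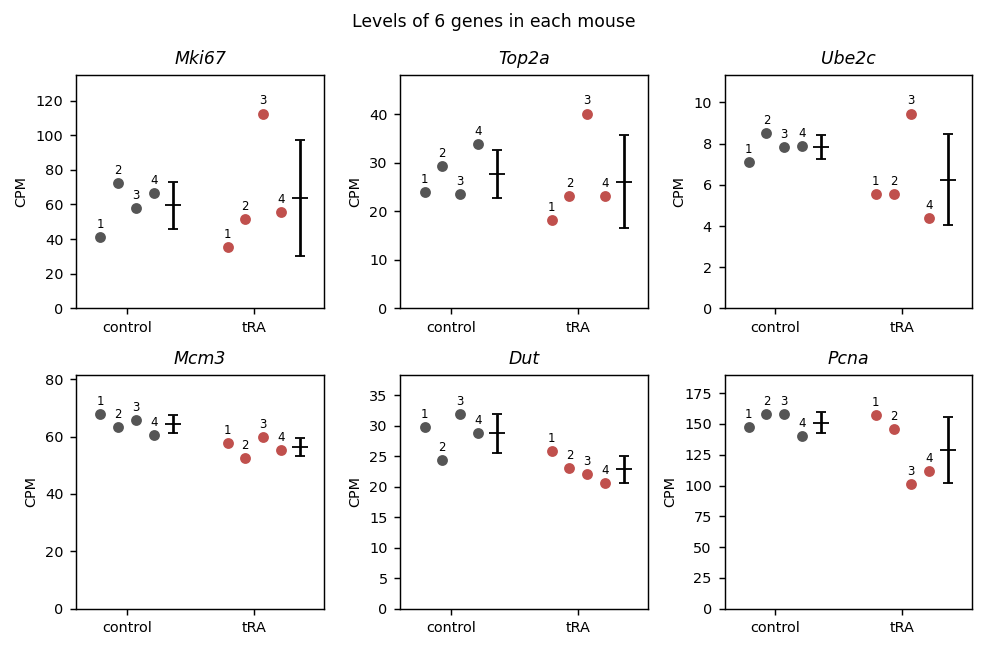
CPM of 6 genes in each mouse (points, numbered by mouse), with the mean and SD of each group (n = 4) beside them. Mki67, Top2a and Ube2c are highest in tRA mouse 3, all 4 tRA mice are below the controls for Mcm3, and Pcna is lowest in tRA mice 3 and 4.

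Among the mitotic cyclins and kinases, Ccna2 encodes cyclin A2, which acts in S phase and at the entry into mitosis. It was at 8.80, 10.6, 9.39 and 9.60 CPM in the controls and 6.35, 8.91, 14.9 and 7.61 CPM with tRA, so tRA mouse 3 was above the control range, tRA mice 1 and 4 were below it and tRA mouse 2 was inside it. Aurkb, the kinase of the chromosomal passenger complex, was at 6.20, 8.87, 6.15 and 8.18 CPM in the controls and 6.48, 7.56, 10.4 and 6.94 CPM with tRA. Its groups overlapped apart from tRA mouse 3, and its log2 fold change of 0.09 (SE 0.18) became -0.07 without that mouse. Of the 7 genes in this role, 5 others (Cdk1, Ccnb1, Ccnb2, Aurka and Plk1) had log2 fold changes between -0.24 and 0.05. Plk1 was the only one of the 7 that was not highest in tRA mouse 3. Without that mouse all 7 were negative, and Cdk1, the master kinase of mitosis, had the lowest value, -0.47 (SE 0.18).

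The chromosomal passenger, spindle checkpoint and anaphase genes were the role with the lowest median, -0.18 with all mice and -0.45 without tRA mouse 3, and all 6 were negative in both. Cdc20, which activates the anaphase-promoting complex, was at 8.34, 9.96, 8.35 and 8.85 CPM in the controls and 7.12, 7.78, 10.6 and 7.82 CPM with tRA. Birc5, which encodes survivin, was at 6.98, 8.56, 8.99 and 8.05 CPM in the controls and 5.31, 6.42, 8.79 and 6.29 CPM with tRA. For both genes, tRA mice 1, 2 and 4 were below every control and tRA mouse 3 was among or above them. Ube2c, the ubiquitin-conjugating enzyme that works with Cdc20, is described because it passed the FDR in 1 setting, and it was chosen after its values were seen. It was at 7.12, 8.50, 7.83 and 7.88 CPM in the controls and 5.56, 5.57, 9.46 and 4.40 CPM with tRA. The log2 fold change was -0.32 (SE 0.21) with all mice and -0.60 (SE 0.14) without tRA mouse 3, where the FDR was 0.938 by edgeR's quasi-likelihood test and 0.0964 by DESeq2, both with Benjamini-Hochberg adjustment. Over all settings and tools, the adjusted p of Ube2c from edgeR, DESeq2 or limma-voom (Benjamini-Hochberg) ran from 0.0964 to 0.999. The checkpoint kinase Bub1 and its relative Bub1b were lowest in tRA mouse 1, at 1.71 and 2.63 CPM, and the highest in tRA mouse 3, at 5.02 and 8.49 CPM.

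The 8 spindle, kinetochore and microtubule genes had a median log2 fold change of -0.0026, with values on both sides of 0. Kif23, a motor of the central spindle, was the most abundant of them per length (2.76 CPM per kb of exon), at 17.1, 21.9, 20.2 and 25.7 CPM in the controls and 20.3, 22.7, 23.4 and 23.3 CPM with tRA. It was 1 of 2 genes of the 40, with Mcm4, that kept a positive log2 fold change without tRA mouse 3. Tpx2, which activates Aurora A on the spindle, was at 7.63, 9.99, 8.47 and 9.63 CPM in the controls and 6.41, 7.65, 13.8 and 6.78 CPM with tRA. Prc1, which bundles the microtubules of the central spindle, had the highest log2 fold change of the 40 genes, 0.19 (SE 0.23). Its level was 7.17, 9.87, 6.93 and 8.14 CPM in the controls and 5.80, 8.03, 13.9 and 8.83 CPM with tRA. This value rested on tRA mouse 3, since it was -0.09 (SE 0.18) without it. Cenpf, the lowest of the 40 per length at 0.227 CPM per kb of exon, was at 6.07 CPM in tRA mouse 3 and between 2.46 and 3.91 CPM in the other 7 mice.

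The library kit does not mark strand, so reads from a gene and an antisense neighbour cannot be told apart where their exons overlap. In GENCODE M21, exons of 11 of the 40 genes share bases with a protein-coding gene on the opposite strand. The largest of these overlaps by share of exon length are 2758 bp of Gins2 with Gse1, or 67.3% of the exon length of Gins2, 1271 bp of Kif20a with Cdc23 (29.3%) and 592 bp of Ube2c with Tnnc2 (22.8%). Prc1 shares 911 bp with Rccd1 (11.1%) and Ccna2 shares 510 bp with Exosc9 (12.5%). How far this affects the levels of these genes was not measured. Of 5 processed copies of members, Ccnb1-ps, Pcna-ps1 and Tyms-ps were at or near 0 in all mice and Pcna-ps2 was between 0.452 and 1.13 CPM. Ccnb2-ps was between 2.02 and 3.24 CPM, against 4.64 to 8.43 CPM for Ccnb2 itself.

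Other genes of the pathway, listed apart from the 40, shared the pattern in part. Of 44 other mitotic genes, 26 were highest in tRA mouse 3 and 20 lowest in tRA mouse 1, against 16.0% and 13.6% of all genes tested. They had 0 at an unadjusted p under 0.05 and a median log2 fold change of -0.02. The 29 polymerase and replication fork genes also had 0 at that p in either direction, with a median of -0.02, and the 19 Rb, E2F, DREAM and mitotic transcription regulators had 0, with a median of 0.09. Without tRA mouse 3, 36 of the 44 other mitotic genes were negative, with a median of -0.14 and 3 lower at that p. The polymerase and fork genes then had a median of -0.05 and 1 lower, and the regulators 0.02 and 2 higher. Of all genes, 2.70% were lower and 2.50% higher without this mouse. Foxm1 and Mybl2, the transcription factors of the mitotic programme, were highest in tRA mouse 3 as well, at 23.5 and 9.71 CPM, against 14.9 to 19.7 CPM and 4.34 to 7.91 CPM in the other 7 mice, and they were chosen after their values were seen. Of 8 G1 cyclins and kinases, 1 was higher with tRA at an unadjusted p under 0.05, Ccne2 (log2 fold change 0.44, SE 0.18), and 0 were lower. Of 6 CDK inhibitors tested, 1 was higher, Cdkn1b (0.20, SE 0.09), while the other 5 had negative log2 fold changes, and Cdkn2a had too few counts to be tested. Of 11 origin and licensing control genes, 1 was lower, Cdt1 (-0.33, SE 0.14), and of 14 DNA damage and repair genes, 1 was lower, H2afx (-0.28, SE 0.10), though 6 of the 11 and 9 of the 14 had positive log2 fold changes. Single calls of this kind stand beside 3.55% of all genes tested that were lower and 2.94% that were higher. Without tRA mouse 3 the log2 fold change was 0.42 (SE 0.20) for Ccne2 and -0.24 (SE 0.13) for Cdt1, neither at that p. Cdkn1b (0.26, SE 0.09) and H2afx (-0.26, SE 0.11) were still under that p without this mouse. By edgeR's quasi-likelihood test (adjusted by Benjamini-Hochberg) these 4 genes had an FDR of 0.757.

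Markers of the dividing cell types of the spleen moved with the module in some mice. Of 16 erythroid precursor markers, 13 were highest in tRA mouse 3, as were 28 of the 40 module genes and 16.0% of all genes tested. Hbb-bs had the highest CPM of these markers. Their summed level was 1030, 1837, 2664 and 653.9 CPM in control mice 1 to 4 and 2480, 821.1, 3941 and 775.0 CPM in tRA mice 1 to 4. Control mouse 4 had the lowest erythroid level for 12 of the 16 markers, against 11.8% of all genes tested. Its mean log2 level of the 40 genes was nonetheless above the control mean. tRA mouse 1, with the lowest mean of the 40 genes, had the third highest sum, of which Hbb-bs was 1479 CPM, but it was below the control mean for 11 of the 16 markers and the lowest mouse for Epor and Rhag. None of the 16 was at 0, with Klf1 between 2.00 and 7.62 CPM, and 0 of the 16 had an unadjusted p under 0.05. The median log2 fold change of the 16 was 0.06 with all mice, and 10 were positive. Without tRA mouse 3 the median was -0.40, 15 of the 16 were negative, and 0 were at that p. Their part in the level of the module was not tested.

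Neutrophil precursor markers were lower in the tRA group, though 0 of 12 had an FDR under 0.1 by edgeR's quasi-likelihood test (adjusted by Benjamini-Hochberg), with a lowest FDR of 0.135. The study itself, which used DESeq2 at an FDR under 0.1, lists Camp, Ngp and Ltf of these 12 among its differentially expressed genes. The list thus holds genes already reported from these data. All 12 had a negative log2 fold change, with a median of -0.87, and 11 were lower at an unadjusted p under 0.05, against 2 of the 40 module genes and 3.55% of all genes tested. The sum of the 12, of which Ngp was the most abundant, was 559.2, 706.9, 746.4 and 640.3 CPM in control mice 1 to 4 and 254.0, 318.4, 349.4 and 497.2 CPM in tRA mice 1 to 4. tRA mouse 1, lowest for 22 of the 40 module genes, was also lowest for 11 of these 12, against 13.6% of all genes tested. By contrast, tRA mouse 3, the highest for the module, was below the control mean for all 12. None was at 0 in every mouse, and their part in the level of the module was not tested. Of 9 plasma cell and plasmablast markers, 4 were lower at an unadjusted p under 0.05 and 0 were higher, with Jchain, the most abundant, at 536.7 to 722.3 CPM in the controls and 366.8 to 541.0 CPM with tRA. Their sum was 1289, 1248, 1273 and 1469 CPM in the controls and 1130, 1293, 1030 and 1025 CPM with tRA, so tRA mouse 3 was not high for them as it was for the module, and their part was not tested. Of 5 germinal centre markers tested, 1 was higher, S1pr2 (log2 fold change 0.35, SE 0.15), against 2.94% of all genes tested, and without tRA mouse 3 its value was 0.27 (SE 0.16) and not at that p. Bcl6 was the most abundant, and Mef2b was at or near 0 in each mouse. The 5 stem and progenitor markers, led by Myb, and the 4 megakaryocyte markers tested, led by Itga2b, had 0 at that p, as did the B cell markers, led by Cd79a, and the T cell markers, led by Lck. No marker of these lists had an FDR under 0.1 by edgeR's quasi-likelihood test (adjusted by Benjamini-Hochberg).

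**Figure D4:**
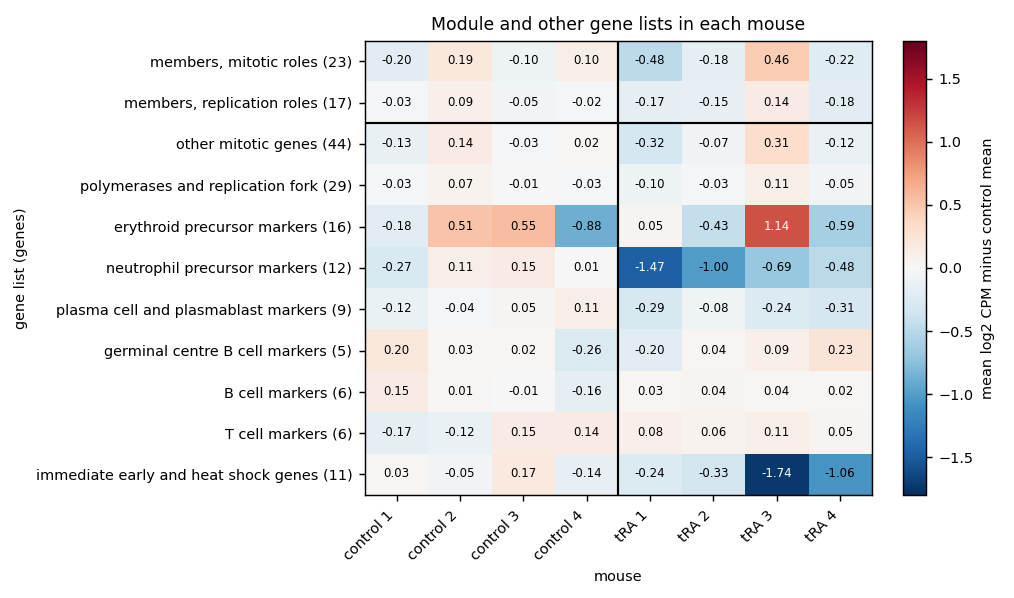
Mean log2 CPM of the 40 genes, split into mitotic and replication roles, and of other gene lists (rows, number of genes tested in brackets) in each mouse, relative to the mean of the 4 control mice. tRA mouse 3 has the highest value for the mitotic genes (0.46) and the erythroid precursor markers (1.14), and the neutrophil precursor markers are below 0 in all 4 tRA mice.

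The promoters of the module were searched for the sequence elements through which cell cycle genes are known to be controlled. RefSeq windows on GRCm38.p6, from 250 bases before to 50 after the gene start, were at hand for 34 of the 40 genes in 37 windows, and not for Ccna2, Aurkb, Gins2, Mcm4, Tpx2 and Kif20a. The searched motifs, on both strands, were the cell cycle genes homology region (CHR, TTTGAA), the CCAAT box (CCAAT) and the E2F cores TTCCCGC or TTCGCGC or TTGCCGC or TTGGCGC. The reverse of the last core ends in the first letters of a CCAAT box, and E2F cores on opposite strands can share bases, so a stretch can count more than once. The CHR was present in 15 of 20 windows of the mitotic roles (75%) and 2 of 17 of the replication roles (11.8%), compared to 17.9% of all 32851 promoter windows. The CCAAT box was present in 18 of the 20 mitotic (90%) and 12 of the 17 replication windows (70.6%), compared to 37.4% of all windows. An E2F core was present in 3 of the 20 mitotic (15%) and 10 of the 17 replication windows (58.8%), compared to 9.57% of all windows. All 15 mitotic windows with a CHR also held a CCAAT box, a pair found in 6.95% of all windows. A match describes the letters only and is not a binding site. The promoters below, 5′ to 3′ on the strand of the gene with matches in capitals, are those with the most matches of each kind in the mitotic and then the replication roles, taking the gene with the highest mean CPM where genes tied. Ccnb2, Cdk1 and Top2a held as many CHR matches as Mki67, Ube2c as many CCAAT matches as Top2a, and Mcm3, Mcm5 and Uhrf1 as many as Mcm7.
Mki67: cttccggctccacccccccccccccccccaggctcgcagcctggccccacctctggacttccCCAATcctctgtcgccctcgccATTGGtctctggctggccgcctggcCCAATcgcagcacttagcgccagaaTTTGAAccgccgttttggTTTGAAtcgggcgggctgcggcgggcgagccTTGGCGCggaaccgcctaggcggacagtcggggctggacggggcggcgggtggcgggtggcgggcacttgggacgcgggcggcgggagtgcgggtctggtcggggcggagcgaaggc
Top2a: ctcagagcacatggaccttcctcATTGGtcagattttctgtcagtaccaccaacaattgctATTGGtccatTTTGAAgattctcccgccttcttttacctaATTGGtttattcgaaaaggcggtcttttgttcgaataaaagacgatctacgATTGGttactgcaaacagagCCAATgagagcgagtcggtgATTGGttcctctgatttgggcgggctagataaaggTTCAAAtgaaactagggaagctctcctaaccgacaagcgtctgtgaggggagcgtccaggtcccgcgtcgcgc
Cdk1: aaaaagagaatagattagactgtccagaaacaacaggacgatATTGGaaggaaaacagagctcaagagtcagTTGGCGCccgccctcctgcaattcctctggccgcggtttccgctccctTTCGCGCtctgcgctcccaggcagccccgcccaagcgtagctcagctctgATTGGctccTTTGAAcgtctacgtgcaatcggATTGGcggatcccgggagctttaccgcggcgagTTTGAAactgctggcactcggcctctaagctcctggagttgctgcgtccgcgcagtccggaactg
Cdc45: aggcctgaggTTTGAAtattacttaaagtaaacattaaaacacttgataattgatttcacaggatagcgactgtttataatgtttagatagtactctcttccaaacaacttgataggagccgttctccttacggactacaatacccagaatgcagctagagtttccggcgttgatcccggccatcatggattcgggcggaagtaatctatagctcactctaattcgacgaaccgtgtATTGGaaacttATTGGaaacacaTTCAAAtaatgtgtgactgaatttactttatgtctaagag
Mcm7: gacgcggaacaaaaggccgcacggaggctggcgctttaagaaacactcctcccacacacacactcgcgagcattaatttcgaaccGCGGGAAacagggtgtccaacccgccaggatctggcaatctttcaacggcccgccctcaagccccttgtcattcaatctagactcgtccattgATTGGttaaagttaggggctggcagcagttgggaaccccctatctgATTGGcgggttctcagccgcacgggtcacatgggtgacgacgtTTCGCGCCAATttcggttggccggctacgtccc
Mcm6: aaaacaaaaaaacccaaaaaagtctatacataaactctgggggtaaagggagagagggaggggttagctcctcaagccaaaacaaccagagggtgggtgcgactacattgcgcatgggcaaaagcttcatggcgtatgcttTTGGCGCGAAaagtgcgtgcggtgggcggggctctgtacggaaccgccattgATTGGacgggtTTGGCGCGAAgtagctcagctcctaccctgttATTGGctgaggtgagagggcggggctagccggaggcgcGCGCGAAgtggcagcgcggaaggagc
The first of these windows, of Mki67, covers chr7:135716330-135716629 on the minus strand and holds 2 CHR, 3 CCAAT and 1 E2F match. The Top2a window covers chr11:99024140-99024439 on the minus strand, with 2 CHR and 6 CCAAT matches, and the Cdk1 window chr10:69352863-69353162 on the minus strand, with 2 CHR, 3 CCAAT and 2 E2F matches. Among the replication genes, the Cdc45 window covers chr16:18811923-18812222 on the minus strand, with 2 CHR and 2 CCAAT matches. The Mcm7 window, 1 of 2 for this gene, covers chr5:138171834-138172133 on the minus strand, with 3 CCAAT and 3 E2F matches, and the Mcm6 window chr1:128359656-128359955 on the minus strand, with 2 CCAAT and 5 E2F matches. Mki67, Top2a, Cdk1, Cdc45 and Mcm6 were highest in tRA mouse 3, and Mcm7 was highest in control mouse 3.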

How the data were processed

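The authors deposited raw counts of reads per Ensembl gene for each mouse, without normalization. The submitters' processing notes name STAR 2.5.2b, featureCounts 1.5.1 and GRCm38, while the methods of the study name Tophat2 and HTSeq, so which of them made the counts is not settled here. The authors' table of their own DESeq2 comparison (fold changes and p-values, version 1.26.0 in those notes) was not used. The tools were edgeR 4.0.16, DESeq2 1.42.0 and limma 3.58.1 (R 4.3.3), and Python 3.11.15 and matplotlib 3.10.9 for the figures. The filter on low counts was filterByExpr (minimum count 10). The 16484 genes left were scaled by TMM and tested by edgeR's quasi-likelihood test, adjusted over all of them by Benjamini-Hochberg, with an FDR threshold of 0.1 as in the study and an unadjusted p of 0.05. The biological coefficient of variation was 0.152. CPM used TMM library sizes, and log2 CPM a prior count of 2. Levels per kb used the merged exons of each gene in GENCODE M21, which has entries for 51633 of the 51826 identifiers. Within a group, every pair of mice differed by more than sampling noise (chi-square over its degrees of freedom, 14.1 to 72.5). The fits were tested on simulated data with counts drawn independently for each gene and mouse, which do not cover a mouse in which many genes move together.

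The 40 genes, their roles and the other lists were chosen with earlier results of these data known. Levels in every mouse were given for the 2 genes of each role with the highest mean CPM, genes at an unadjusted p under 0.05 or with separated groups, Mki67, Top2a, Pcna, and the genes with the highest and lowest log2 fold change. The alternatives tried were limma-voom, DESeq2, scaling by RLE or by library size alone, other filters (none, or at least 10 counts in every sample), the replicate number as a block, and leaving out each mouse.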

Additional observations from a re-analysis of the deposited data

Results flagged for a closer look

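In 126 groups of 4 mice (40 genes, 7 role sums and 16 other list sums in each treatment group), 11 held a mouse whose gap to its nearest neighbour took more of the range of the group than Dixon's 95% critical value allows, where chance gives about 1 in 20, or 6.3. tRA mouse 3 was the high value in 9 of the 11. These were Cdc45 (gap over range 0.848), Gins2 (0.86), Rrm2 (0.842), Cdk1 (0.887), Ccnb2 (0.862), Cenpf (0.911) and Tpx2 (0.832), the summed level of replication licensing and helicase genes (0.865) and that of the other mitotic genes (0.889). The genes are not independent of each other, so these 9 describe 1 mouse. Control mouse 2 stood apart for Cdc6 (0.89). tRA mouse 4 stood apart for the summed B cell markers (0.952), at 5800 CPM next to 5951 to 5959 CPM in the other tRA mice.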

How the results depend on the processing

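The counts of the 40 genes past an FDR of 0.1 and higher at an unadjusted p under 0.05 were 0 with each other tool, scaling and filter, with the replicate block and without each mouse, and the count lower at that p was 1 to 16 over the mice left out (1 without control mouse 1 or tRA mouse 2, 16 without tRA mouse 3). DESeq2 without tRA mouse 3, added after seeing the data, gave 1 past the FDR and 17 lower. The median log2 fold change was between -0.253 and 0.0127 over the mice left out. Of 17 genes with levels given for every mouse by the naming rule, 8 kept their sign in each alternative, among them Mcm3 (-0.222 to -0.161 over the mice left out), Dut (-0.398 to -0.279) and Pcna (-0.336 to -0.128). For the other 9, the ranges over the mice left out were -0.0359 to 0.0448 for Mcm2, -0.0546 to 0.0494 for E2f1, -0.334 to 0.127 for Ccna2, -0.0723 to 0.198 for Aurkb, -0.00842 to 0.186 for Kif23, -0.362 to 0.0804 for Tpx2, -0.326 to 0.299 for Mki67, -0.366 to 0.0617 for Top2a and -0.0881 to 0.354 for Prc1. With library size alone, Ccna2 was at 0.0167. DESeq2 without tRA mouse 3 gave -0.0336 for Mcm2, -0.0521 for E2f1, -0.0698 for Aurkb, -0.324 for Mki67 and -0.0863 for Prc1. The cause was not tested.

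Mice with the same number in both groups had correlations of 0.157, -0.0229, -0.014 and 0.259. No values for mice with different numbers stand beside these, so whether the numbers pair the mice was not settled. Under the replicate block, 3 of the 40 genes were lower at an unadjusted p under 0.05, against 4.34% of all genes, and 0 passed the FDR, their median log2 fold change was -0.101, and Mki67 was at -0.00478.

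With library size alone, the split of all genes at an unadjusted p under 0.05 was 3.99% higher and 3.04% lower. The SE of the 40 log2 fold changes ran from 0.06 to 0.31, which bounds the differences that 4 mice a group can show. The less abundant members rest on under 100 counts in some mice.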
